A study of Mus musculus with 79 samples.

Results

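The genes described here encode subunits of voltage-gated sodium and calcium channels, measured as ribosome-bound mRNA in neurons that carry dopamine receptors. They are all rows of the deposited table whose symbol is Scn with a number and a or b, or starts with Cacna, or is Cacnb or Cacng with a number: 39 of 25899 genes. The choice used symbols only. Of the 39, 27 passed the filter on low values (at least 1 CPM, reads scaled to library size, in as many libraries as the smaller group holds) in all 6 comparisons of 2 groups, 5 passed in some of them and 7 in none. The row for the sodium channel gene Scn2a carries the older symbol Scn2a1, which the rule does not match. It is given beside the members and counted apart.

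The mice carried a bacterial artificial chromosome transgene in which the promoter of the dopamine D1a or the D2 receptor gene drives ribosomal protein L10a fused to eGFP. Both lines were kept heterozygous on C57BL/6J, and every library pooled tissue of 3 mice. Both sexes were present in each pool whose label gives the sexes in full, which 2 cortex labels do not. No treatment was compared, and age is not given in the sources used here. Antibodies against GFP pull down ribosomes from cells in which the promoter is active, so D1 and D2 below name the promoter. The 5 groups were D1 prefrontal cortex (n = 19), D1 dorsal striatum (n = 15), D1 ventral striatum (n = 15, punches of nucleus accumbens), D2 dorsal striatum (n = 16) and D2 ventral striatum (n = 14). The comparisons ask how channel genes differ by region and by receptor. A difference between such pulldowns cannot tell fewer cells of a type apart from less RNA per cell.

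Voltage-gated sodium channels carry the inward current of the action potential: a large alpha subunit (such as Scn1a and Scn8a) forms the pore and beta subunits (such as Scn2b and Scn4b) change its gating and placement. Calcium channels turn depolarization into calcium entry. Their pore subunits fall into L-type (Cacna1c, Cacna1d), which signal from dendrites and soma to enzymes and genes, P/Q-, N- and R-type (Cacna1a, Cacna1b, Cacna1e), which serve transmitter release, and T-type (Cacna1g, Cacna1h, Cacna1i), which open near rest. The alpha2delta (Cacna2d) and beta (Cacnb) subunits bring the pore to the membrane. Most products of the Cacng family are auxiliary proteins of AMPA glutamate receptors. Striatal projection neurons sit at a very negative potential and fire rarely, and Scn4b has long been used as a gene enriched in striatum.

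Reads in genes ran from 7.35 M to 30.8 M per library (median 17.5 M; M stands for mega). Drd1a, the D1a receptor gene, had median levels of 232 and 156 CPM in D1 dorsal and ventral striatum, against 12.1 and 15.1 CPM in the D2 groups and 16.7 CPM in prefrontal cortex. Drd2 had medians of 1146 and 625 CPM in the D2 groups and 5.53 and 7.98 CPM in the D1 striatal groups, so the striatal labels match their receptor genes. The 6 markers of cortical projection neurons, none at 0 throughout a group, summed to a median of 643 CPM in prefrontal cortex (range 568 to 926), 105 and 67.8 CPM in D1 dorsal and ventral striatum (34.8 to 147 and 20.6 to 117), and 9.46 and 14.1 CPM in D2 (4.03 to 38.3 and 4.77 to 85.8). Of these markers, 6 of 6 were higher in D1 than in D2 dorsal striatum and 5 of 6 in ventral striatum. Markers of GABA interneurons summed to medians of 164 CPM in cortex and 14.1 to 37.2 CPM in the striatal groups. In 4 cortex libraries (replicates 1, 2, 6 and 19) the striatal gene Ppp1r1b lay between 56.7 and 139 CPM, against 12.1 to 48.4 CPM in the other 15. Library names begin with a code (EM, OdP, BdP or JAG) of unstated meaning: D2 libraries are OdP in 8 of 16 dorsal and 5 of 14 ventral pools, while D1 libraries are OdP in 1 ventral pool alone. The sources used here do not tell if one set of mice gave several regions, and p-values measure the spread between these pools.

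Cacna2d3 and Cacna1i were lower in cortex and higher in dorsal than in ventral striatum, while Cacna2d1, another alpha2delta gene, was higher in cortex. For these 3 members, each called between cortex and striatum, the 250 bases before the annotated start are shown. They are from RefSeq (GRCm38.p6, the build named in the submitters' processing notes), on the strand of the gene, 5′ to 3′. Capitals mark GGGCGG, a GC box, on either strand, where neighbouring matches may share a base.
Cacna2d3, chr14:29721865-29722114, minus strand: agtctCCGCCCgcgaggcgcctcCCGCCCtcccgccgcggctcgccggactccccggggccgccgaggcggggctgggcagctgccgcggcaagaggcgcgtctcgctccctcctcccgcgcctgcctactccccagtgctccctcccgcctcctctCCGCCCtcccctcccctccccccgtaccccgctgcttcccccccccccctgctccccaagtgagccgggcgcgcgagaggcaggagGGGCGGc
Cacna2d1, chr5:15934441-15934690, plus strand: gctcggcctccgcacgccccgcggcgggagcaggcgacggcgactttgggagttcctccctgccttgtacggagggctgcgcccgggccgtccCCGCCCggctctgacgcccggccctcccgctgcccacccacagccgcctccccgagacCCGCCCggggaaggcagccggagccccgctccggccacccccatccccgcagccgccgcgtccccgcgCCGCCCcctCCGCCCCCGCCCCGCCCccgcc
Cacna1i, chr15:80286988-80287237, plus strand: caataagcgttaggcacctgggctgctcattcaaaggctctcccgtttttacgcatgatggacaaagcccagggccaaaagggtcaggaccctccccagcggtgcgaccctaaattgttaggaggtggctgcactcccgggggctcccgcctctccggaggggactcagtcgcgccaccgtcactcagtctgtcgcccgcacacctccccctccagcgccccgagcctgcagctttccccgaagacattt
The GC box occurred 4 times before Cacna2d3, 6 times before Cacna2d1 and 0 times before Cacna1i. It was present in 32.7% of 32851 such windows of the genome and in 15 of the 41 windows of members. The windows of Cacna2d3 and Cacna2d1 held 80.0% and 82.4% G and C, against a median of 52.4% over all windows, although both genes moved in opposite directions between cortex and striatum. None of the 3 held TATAAA (12.4% of all windows), CCAAT (33.8%) or the cyclic AMP response element TGACGTCA (1.55%), each searched on both strands. These matches describe letters and no binding.

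**Figure D1:**
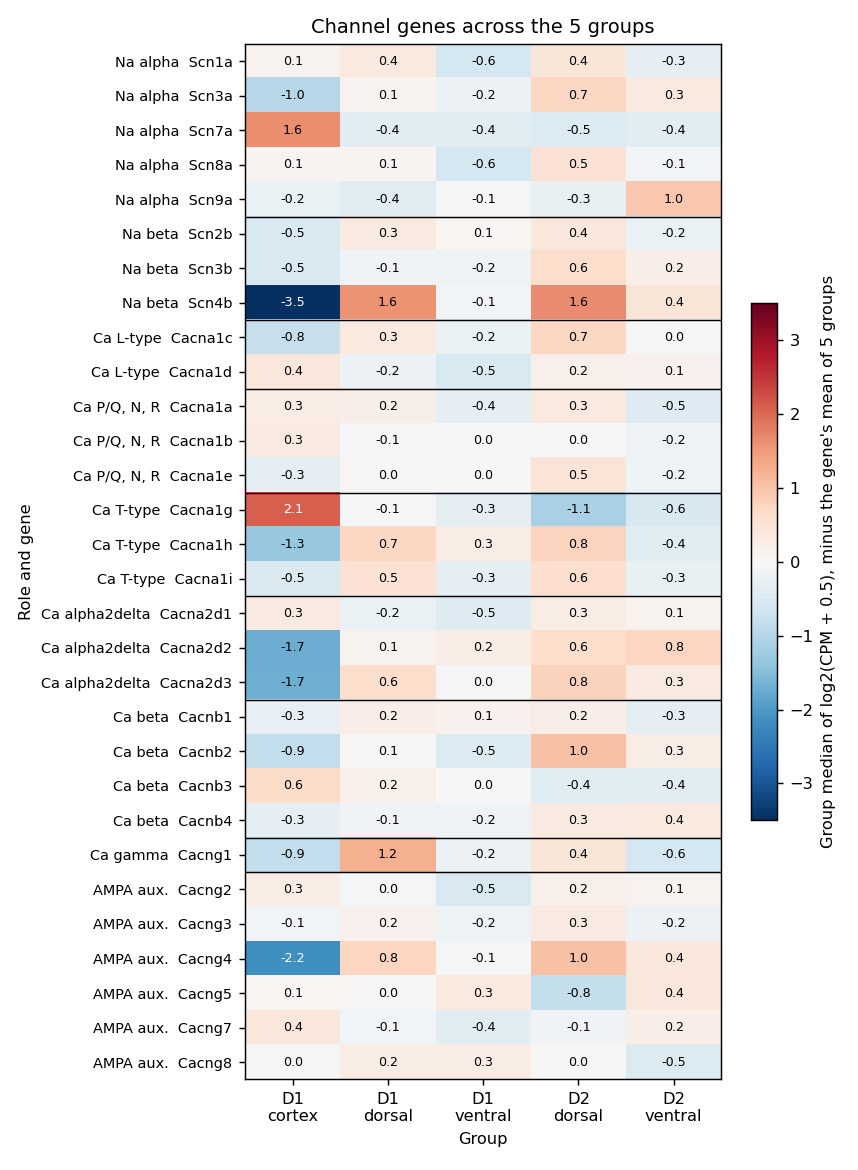
Median log2(CPM + 0.5) of each of 30 members that passed the filter in at least 1 comparison of 2 groups, in each of the 5 groups, minus the mean of that gene's 5 group medians; rows are ordered by role. The deepest blue and red cells of the cortex column are Scn4b and Cacna1g.

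The highest group median was in D2 dorsal striatum for 16 of the 32 members that passed anywhere and in prefrontal cortex for 9. It was in D2 ventral striatum for 4, in D1 ventral striatum for 2 and in D1 dorsal striatum for 1. No such count was made over all genes, so these are a description. Of the D2 dorsal libraries, 8 of 16 are OdP. There, 5 of 27 tested members were lower in EM than in OdP libraries (30.2% of all genes differed). Each comparison was tested with limma on log2(CPM + 0.5) with Benjamini-Hochberg adjustment over all genes, and a gene is called different at an adjusted p under 0.05. All differences below are on that log2 scale, where 1 is 2-fold and where changes of low genes are understated. Prefrontal cortex against dorsal striatum gave 25 of 29 tested members called (9 higher in cortex, 16 lower), where 54.8% of all genes were called. Prefrontal cortex against ventral striatum gave 25 of 29 (12 higher, 13 lower), where 62.8% of all genes were called. Of the called members, 11 and 7 differed at least 2-fold (16% and 14.2% of all genes), and for 8 in each comparison the libraries did not overlap (10.5% and 12.6% of all genes). Scn7a, counted as called and at least 2-fold in both and as without overlap against ventral striatum, passed the filter through cortex alone. These counts are therefore given as a description. Both comparisons use the same cortex libraries.

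Within striatum, dorsal against ventral gave 16 of 29 members called in D1, all 16 higher in dorsal striatum, where 34.6% of all genes were called (10.1% higher and 24.5% lower). In D2 the count was 16 of 28 (14 higher, 2 lower), where 28.5% of all genes were called (7.93% higher and 20.6% lower). At least 2-fold differences were found for 2 members in D1 and 5 in D2 (3.45% and 4.15% of all genes). Cacng1 in D1 and Scn9a in D2 passed the filter mainly through their higher group, so nothing is read from these counts. The tested members' median difference was 0.34 in D1 and 0.39 in D2, while the median of all genes was -0.12 in both. Striatal projection neuron markers were higher dorsally for 4 of 8 and lower for 4 in D1. In D2 they were higher for 5 of 8 and lower for 1. Markers of other cells moved along the same comparisons. Of the oligodendrocyte markers, 3 of 3 tested were higher dorsally in D1 and 1 of 5 in D2, with summed medians of 73.5 and 46.7 CPM in D1 and 110 and 80.5 CPM in D2 dorsal and ventral striatum. In D1, GABA interneuron markers were higher dorsally for 3 of 5 and lower for 2, and cortical projection neuron markers were higher for 2 of 6. In D2 the latter were lower for 1 of 4 tested. There, 4 of 5 GABA interneuron markers and 2 of 3 cholinergic interneuron markers were lower dorsally, with summed medians of 14.1 against 33.7 CPM and 6.32 against 12.2 CPM. Their part in the counts was not tested. D1 against D2 gave 12 of 29 members called in dorsal striatum (5 higher in D1, 7 lower; 25.9% of all genes) and 21 of 30 in ventral striatum (5 higher, 16 lower; 47.7% of all genes). At least 2-fold differences were found for 3 members in dorsal and 2 in ventral striatum (3.36% and 3.62% of all genes). Of these, Cacna1g and Cacng1 in dorsal and Scn9a in ventral striatum passed the filter mainly through their higher group, so these counts are given as a description. Libraries without overlap were found for 0 members in each (1.18% and 1.34% of all genes). Markers of other cells also moved with receptor, with 6 of 6 cortical projection neuron markers higher in D1 dorsally and 5 of 6 ventrally. Oligodendrocyte markers were lower in D1 for 2 of 4 tested in dorsal and 2 of 3 in ventral striatum, cholinergic interneuron markers for 1 of 1 and 3 of 3, and GABA interneuron markers were higher for 3 of 5 in dorsal and lower for 1 of 5 in ventral striatum. Cholinergic markers summed to medians of 0.751 and 1.34 CPM in D1 and 6.32 and 12.2 CPM in D2. Those tested passed the filter mainly through D2 libraries, so the filter favoured this direction. The part of these marker lists in the counts was not tested. The ventral count fell to 6 (3 higher, 3 lower) when each library's genic share, the share of its reads that fell in genes, was added to the fit. Of the 21 calls, 16 were lost in it, and those of Cacna2d2, Cacnb2, Cacnb3 and Cacng2 were among those that held. The genic share averaged 35.1% in D1 and 38.0% in D2 ventral striatum (difference -2.87 points, permutation test, two-sided, p = 0.00012, adjusted p = 0.00144 over 12 comparisons). Scaled to the reads in genes, the ventral split was 6 higher and 11 lower. Whether the receptor difference differed between regions was tested with limma's interaction term, which called 0 of 31 members, with 9 at an unadjusted p under 0.05, where 2.64% of all genes were called (1.93% in the higher direction), and edgeR on the recovered reads also called 0. The smallest adjusted p was 0.0887, for Cacna1e. Cacng5 was called within EM libraries (1.13, adjusted p = 0.0402), and Cacna1h without D1 dorsal replicate 13 and D2 dorsal replicate 6, the lowest in Ppp1r1b of their groups (-0.59, adjusted p = 0.031). Between EM and OdP libraries of one group, 5 of 27 tested members were called in D2 dorsal striatum (30.2% of all genes) and 6 of 30 in D2 ventral striatum (22.1% of all genes).

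Among sodium channel beta subunits, Scn4b was higher in striatum than in cortex and higher in dorsal than in ventral punches. Scn4b, on chromosome 9 (45138395 to 45154152, plus strand, 5 merged exons), encodes the beta4 subunit. Its lowest, median and highest values were 4.40, 7.16 and 21.7 CPM in prefrontal cortex, 198, 261 and 306 CPM in D1 dorsal striatum, and 52.7, 82.3 and 111 CPM in D1 ventral striatum. In D2 they were 211, 276 and 332 CPM in dorsal and 72.1, 118 and 151 CPM in ventral striatum. Every dorsal library lay above every ventral library of its receptor, and every striatal library lay above every cortex library. The dorsal minus ventral difference was 1.61 in D1 (SE 0.10, adjusted p = 2.12e-15, limma) and 1.27 in D2 (SE 0.09, adjusted p = 3.14e-13). Libraries without overlap were found for 2 members (Scn4b and Scn1a) in D1 and for Scn4b alone in D2, where 2.65% and 1.46% of all genes did not overlap.

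Cortex differed from dorsal striatum in Scn4b by -4.77 (SE 0.15, adjusted p = 6.07e-26) and from ventral striatum by -3.16 (SE 0.16, adjusted p = 4.54e-21). The 4 cortex libraries highest in Ppp1r1b held 12.3 to 21.7 CPM of Scn4b, and the other 15 held 4.40 to 9.80 CPM. Without those 4 the differences were -5.04 and -3.43. By receptor, Scn4b was called in ventral striatum only, where D1 lay below D2 by 0.46 (SE 0.11, adjusted p = 0.000646); in dorsal striatum the difference was -0.12 (adjusted p = 0.302). The ventral call was lost with the genic share in the fit (difference -0.32, adjusted p = 0.14), and the 2 receptor differences did not differ from each other in the interaction test (0.34, adjusted p = 0.177).

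**Figure D2:**
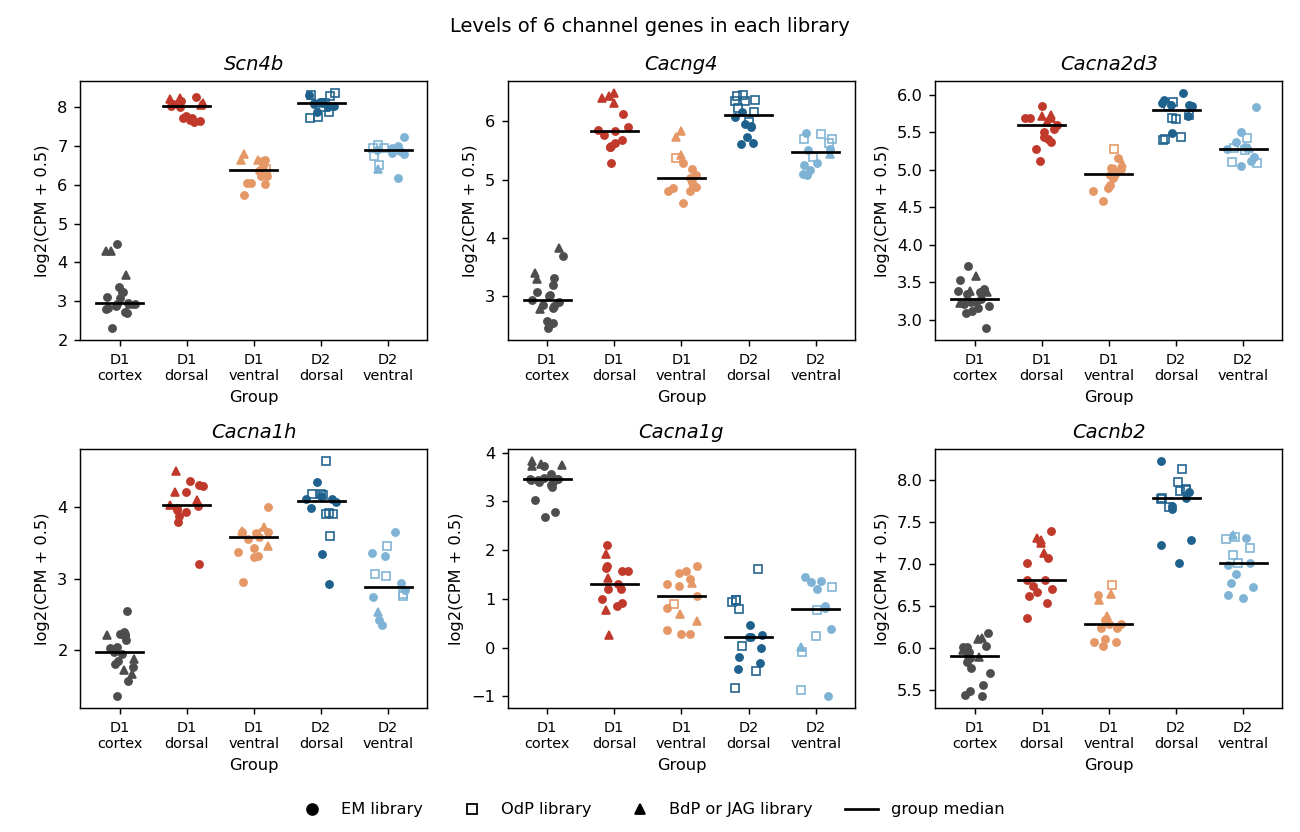
Log2(CPM + 0.5) of 6 members in each of the 79 libraries, by group, with a bar at the group median; filled circles are EM, open squares OdP and triangles BdP or JAG libraries. Scn4b, Cacng4, Cacna2d3, Cacna1h and Cacnb2 had their lowest median in cortex, while Cacna1g had its highest there.

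Scn3b, which encodes the beta3 subunit, was lower in D1 than in D2 in dorsal striatum by 0.82 (SE 0.13, adjusted p = 5.5e-06) and in ventral striatum by 0.35 (SE 0.09, adjusted p = 0.00235), the latter lost with the genic share in the fit (-0.08). Scn2b (beta2) lies 8.32 kb upstream of Scn4b on the same strand. It was lower in cortex (-0.82 and -0.61) and its differences within striatum ran from -0.09 to 0.38, with no call. Other fits called it higher dorsally: in D1 with edgeR (0.36, adjusted p = 0.0231) and without the dorsal library lowest in Ppp1r1b, replicate 13 (0.33, adjusted p = 0.00314). In D2 it was called under median-ratio scaling (0.51, adjusted p = 0.0432) and within OdP libraries (0.76, adjusted p = 8.33e-05, limma). Per kilobase of exon, Scn4b made up a median of 56.3% of the summed signal of Scn2b, Scn3b and Scn4b in D1 dorsal striatum and 53.0% in D2 dorsal striatum. The share was 32.7% and 40.4% in the D1 and D2 ventral groups and 6.52% in cortex, where Scn2b held 67.1%. The signal of these 3 genes summed to a median of 24.8 CPM per kilobase in cortex and 86.7 and 107 in D1 and D2 dorsal striatum.

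Among the members that encode sodium channel alpha subunits, Scn8a, Scn1a and Scn3a had the highest levels per kilobase; Scn2a1 lies outside the rule. Scn8a, which encodes the channel of the axon initial segment and nodes, had medians of 122 CPM in cortex, 123 and 74.9 CPM in D1 dorsal and ventral striatum, and 164 and 107 CPM in D2. Dorsal striatum was the higher region, by 0.75 in D1 (SE 0.13, adjusted p = 2.39e-05) and 0.50 in D2 (SE 0.12, adjusted p = 0.00188). Within EM libraries the D2 difference was 0.51 and not called (adjusted p = 0.0633). Scn1a, prominent in interneurons in cortex, was higher in dorsal striatum by 0.95 in D1 (SE 0.09, adjusted p = 1.4e-10) and by 0.64 in D2 (SE 0.10, adjusted p = 9.07e-06). Its D1 dorsal libraries (34.1 to 60.0 CPM) did not overlap the D1 ventral ones (17.7 to 31.5 CPM).

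Scn3a, a subunit best known from developing brain, lies 53.1 kb from Scn2a on chromosome 2. Its lowest, median and highest values were 7.35, 12.0 and 22.7 CPM in cortex, 23.8, 27.0 and 51.2 CPM in D1 dorsal striatum, and 15.9, 21.4 and 33.4 CPM in D1 ventral striatum. D2 libraries held 28.3, 41.2 and 67.6 CPM in dorsal and 18.4, 31.5 and 40.0 CPM in ventral striatum. All 15 D1 dorsal libraries exceeded every cortex library, a difference of -1.30 for cortex (SE 0.13, adjusted p = 7.32e-12); against ventral striatum it was -0.81. Dorsal exceeded ventral striatum by 0.49 in D1 and 0.47 in D2 (adjusted p = 0.0019 and 0.00492, limma). In ventral striatum D1 was lower than D2 by 0.35 (adjusted p = 0.0187). That call was lost when values were scaled to the reads in genes, and its sign turned (0.08, adjusted p = 0.763) with the genic share in the fit.

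The alpha subunits of peripheral nerve and muscle were near 0. Scn4a, of skeletal muscle, reached 0.0365 CPM at most, and Scn10a and Scn11a, of sensory neurons, stayed under 1 CPM in every library. Scn7a, an atypical sodium-sensing member, measured 0.286, 1.69 and 2.78 CPM in cortex (lowest, median, highest) and 0 to 0.409 CPM in D1 dorsal and 0 to 0.231 CPM in D1 ventral striatum. Its cortex minus striatum differences were 1.73 (SE 0.16) and 1.87 (SE 0.15). Astrocyte markers moved with them: the list summed to a median of 22.4 CPM in cortex (8.16 to 50.9) against 5.44 CPM in D1 dorsal (3.06 to 12.1) and 3.24 CPM in D1 ventral striatum (1.9 to 7.17), and 4 of 4 were higher in cortex in each comparison. Only 1 of the 4 passed the filter between D1 dorsal and ventral striatum. The others relied on cortex libraries to pass, so the filter favoured that direction. The part of these markers in the Scn7a difference was not tested. Scn9a, a subunit of sensory and some hypothalamic neurons, measured 1.21, 2.42 and 5.49 CPM in D2 ventral striatum. Its medians were 0.936 CPM in D1 ventral, 0.764 CPM in D2 dorsal, 0.650 CPM in D1 dorsal striatum and 0.784 CPM in cortex. The ranges of D2 ventral striatum overlapped those of D1 ventral and of D2 dorsal striatum. The D1 minus D2 difference in ventral striatum was -1.0 (SE 0.18, adjusted p = 4.28e-05), or -0.70 with the genic share in the fit (adjusted p = 0.0551), and dorsal minus ventral in D2 was -1.13 (SE 0.21, adjusted p = 7.74e-05). Scn7a and Scn9a met the minimum through their higher group alone, so these directions were fixed by the filter and lend no support to a count.

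T-type channels divided by region. Cacna1g, on chromosome 11 (94408391 to 94474198, minus strand), had 5.94, 10.4 and 13.8 CPM (lowest, median, highest) in cortex. The D1 striatal groups held 0.703, 1.98 and 3.80 CPM in dorsal and 0.711, 1.58 and 2.69 CPM in ventral striatum, and the D2 groups 0.0606, 0.662 and 2.55 CPM and 0, 1.23 and 2.22 CPM. Every cortex library exceeded every D1 striatal library. Cortex exceeded D1 dorsal striatum by 2.12 (SE 0.13, adjusted p = 2.88e-17) and D1 ventral striatum by 2.42 (SE 0.13, adjusted p = 1.32e-19). In dorsal striatum D1 exceeded D2 by 1.03 (SE 0.20, adjusted p = 0.000207), while the ventral difference was 0.45 (adjusted p = 0.105). It entered the dorsal test mainly through D1 libraries, so the filter favoured that direction. The D1 libraries also had the higher sum of cortical projection neuron markers, whose part was not tested.

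Cacna1h, on chromosome 17 (25374285 to 25433783, minus strand), ran the other way. Its lowest, median and highest values were 2.06, 3.44 and 5.33 CPM in cortex, 8.70, 15.8 and 22.2 CPM in D1 dorsal striatum, and 7.20, 11.4 and 15.5 CPM in D1 ventral striatum. In D2 they were 7.11, 16.5 and 24.6 CPM in dorsal and 4.58, 6.90 and 12.1 CPM in ventral striatum. No cortex library reached the lowest D1 striatal library. The differences were -2.08 (SE 0.11, adjusted p = 3.27e-20) and -1.56 (SE 0.10, adjusted p = 5.37e-18) for cortex against dorsal and ventral striatum. Dorsal exceeded ventral striatum by 0.52 in D1 (SE 0.10, adjusted p = 0.000114) and by 1.03 in D2 (SE 0.15, adjusted p = 8.21e-07). In ventral striatum D1 exceeded D2 by 0.58 (SE 0.12, adjusted p = 0.000261), and by 0.40 with the genic share in the fit (adjusted p = 0.118). Some exon sequence of Cacna1h (158 bases) overlaps Tpsg1 on the opposite strand, and whether counting used strand is not given in the sources used here.

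Cacna1i, the third T-type gene, measured 5.19, 10.3 and 11.7 CPM in cortex, 9.52, 20.9 and 34.5 CPM in D1 dorsal, and 9.62, 11.6 and 20.4 CPM in D1 ventral striatum. It measured 9.47, 22.2 and 44.2 CPM in D2 dorsal and 5.91, 12.2 and 21 CPM in D2 ventral striatum, so the ranges overlapped in each comparison. It was higher in dorsal striatum by 0.70 in D1 (SE 0.14, adjusted p = 0.000102) and 1.02 in D2 (SE 0.19, adjusted p = 8.99e-05). Cortex lay below dorsal striatum by 1.07 (SE 0.13, adjusted p = 2.28e-09) and below ventral striatum by 0.37 (SE 0.10, adjusted p = 0.00161). Neither receptor comparison called it.

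The L-type pair also parted. Cacna1c, on chromosome 6 (118587240 to 119196418, minus strand), encodes the main L-type pore of brain. It measured 7.23, 10.7 and 14.7 CPM in cortex (lowest, median, highest), 16.5, 24.7 and 37.4 CPM in D1 dorsal, and 10.9, 16.3 and 23.5 CPM in D1 ventral striatum. D2 libraries held 19.3, 32.3 and 40.3 CPM in dorsal and 12.5, 19.0 and 35.0 CPM in ventral striatum. All D1 dorsal libraries exceeded all cortex libraries, with a cortex difference of -1.13 (SE 0.10, adjusted p = 1.77e-12), and -0.51 against ventral striatum (SE 0.09, adjusted p = 9.68e-06). Its dorsal minus ventral difference was 0.62 in D1 (adjusted p = 2.71e-05) and 0.59 in D2 (adjusted p = 0.000608), the latter not called within OdP libraries (0.33, adjusted p = 0.101). Cacna1d, whose channel opens at more negative potentials, was higher in cortex by 0.56 and 0.82 (adjusted p = 1.64e-05 and 1.31e-09, limma) and lower in D1 than in D2 by 0.41 in dorsal and 0.56 in ventral striatum (adjusted p = 0.00406 and 0.000154, limma). The dorsal receptor call was lost within EM libraries and the ventral one with the genic share in the fit. The retinal and muscle pores Cacna1f and Cacna1s stayed below 0.25 CPM in each library.

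Of the pore subunits of transmitter release, Cacna1a (P/Q-type) measured 18.5, 25.0 and 40.7 CPM in cortex, 11.6, 24.4 and 36.5 CPM in D1 dorsal and 10.8, 16.3 and 27.5 CPM in D1 ventral striatum (lowest, median, highest). D2 dorsal striatum held 18.2, 26.6 and 38.6 CPM and D2 ventral striatum 9.34, 15.2 and 22.5 CPM. Ventral striatum was the low group for both receptors: dorsal exceeded it by 0.61 in D1 (SE 0.13, adjusted p = 0.000549) and 0.76 in D2 (SE 0.11, adjusted p = 2.18e-06), and cortex exceeded it by 0.60 (SE 0.10, adjusted p = 2.7e-06). Cortex and dorsal striatum differed by -0.01 (SE 0.11, adjusted p = 0.94). Cacna1b (N-type) was higher in cortex by 0.42 and 0.40 (adjusted p = 0.00396 and 0.000652, limma). It was not called within striatum, except between receptors in ventral striatum with the genic share in the fit (0.43, adjusted p = 0.0286). Cacna1e (R-type) had the highest signal per kilobase of the pore subunits in each group, with median shares of 36.5% to 45.7%. It was lower in D1 than in D2 dorsal striatum by 0.42 (SE 0.13, adjusted p = 0.0183), but it was also lower in EM than in OdP libraries of D2 dorsal striatum by 0.57 (adjusted p = 0.00107), and within EM libraries the receptor call was lost. It was also lost when values were scaled to the reads in genes, and within EM libraries D1 was called higher in ventral striatum (0.35, adjusted p = 0.0242).

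The alpha2delta genes changed places between cortex and striatum. Cacna2d3, on chromosome 14 (28904943 to 29721864, minus strand), measured 6.90, 9.20 and 12.6 CPM in cortex (lowest, median, highest), 34.2, 48.1 and 57.1 CPM in D1 dorsal and 23.6, 30.1 and 38.1 CPM in D1 ventral striatum. D2 libraries held 41.8, 54.9 and 64.6 CPM in dorsal and 32.5, 38.4 and 56.8 CPM in ventral striatum. No striatal library fell into the range of cortex. The cortex differences were -2.25 (SE 0.08, adjusted p = 1.49e-25) and -1.64 (SE 0.07, adjusted p = 4.78e-23). Ventral striatum lay below dorsal striatum by 0.61 in D1 (SE 0.07, adjusted p = 3.73e-08) and by 0.44 in D2 (SE 0.09, adjusted p = 0.00012). By receptor, D1 was lower in ventral striatum by 0.35 (adjusted p = 0.000643), a call that was lost with the genic share in the fit (-0.21, adjusted p = 0.198).

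Cacna2d2, on chromosome 9 (107399612 to 107529343, plus strand), followed the same order for cortex: 3.29, 5.89 and 11.4 CPM there, 10.6, 22.8 and 32.8 CPM in D1 dorsal and 15.4, 24.9 and 33.0 CPM in D1 ventral striatum. It measured 24.7, 32.1 and 41.5 CPM in D2 dorsal and 27.8, 35.8 and 46.6 CPM in D2 ventral striatum, and 12 of the 14 D2 ventral libraries exceeded all D1 ventral ones. Cortex was lower by 1.76 (SE 0.14, adjusted p = 8.29e-14) and 1.86 (SE 0.13, adjusted p = 3.58e-16). D1 was lower than D2 by 0.50 in dorsal (SE 0.11, adjusted p = 0.00107) and 0.60 in ventral striatum (SE 0.09, adjusted p = 4.71e-06). Dorsal and ventral striatum were not called different for either receptor (-0.11 and -0.20), though without the filter the D2 difference had an adjusted p of 0.0464.

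Cacna2d1, the gabapentin-binding subunit with Cacna2d2, was higher in cortex instead, by 0.47 against dorsal (SE 0.10, adjusted p = 0.000196) and 0.70 against ventral striatum (SE 0.11, adjusted p = 8.89e-07). Its group medians were 35.4 CPM in cortex, 24.1 and 20.5 CPM in D1 and 34.2 and 31.1 CPM in D2 dorsal and ventral striatum. In D2 dorsal striatum Cacna2d1 was lower in EM than in OdP libraries by 0.61 (adjusted p = 0.000179, limma). In D2 ventral striatum it was lower in EM libraries by 0.40 and not called (adjusted p = 0.0677, limma). Per kilobase of exon it made up a median of 55.3% of alpha2delta signal in cortex and 15.7% in D1 dorsal striatum, while Cacna2d3 made up 29.7% and 61.5%. The alpha2delta signal summed to 7.67 CPM per kilobase in cortex and 19.2 in D1 dorsal striatum. Cacna2d4, of the retina, passed no filter (at most 2.49 CPM).

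**Figure D3:**
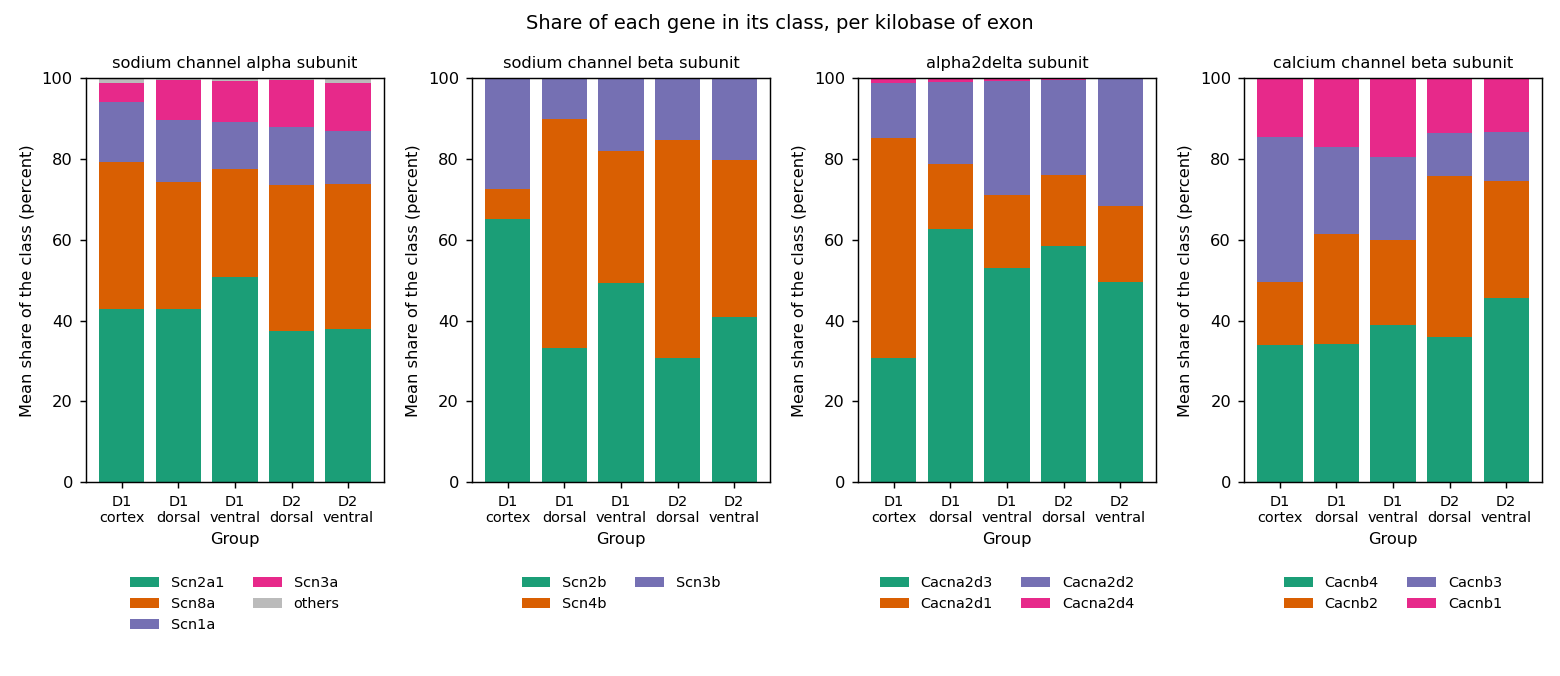
Mean share of each gene in the per-kilobase signal of its class (percent, stacked to 100) in the 5 groups, for sodium channel alpha and beta, alpha2delta and calcium channel beta subunits; the alpha class includes Scn2a1, and the beta class is Scn2b, Scn3b and Scn4b. Scn4b and Cacna2d3 are the largest segments of their bars in dorsal striatum, and Scn2b and Cacna2d1 in cortex.

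Among calcium channel beta subunits, Cacnb2 was higher and Cacnb3 lower in D2 than in D1. Cacnb2, on chromosome 2 (14603088 to 14987908, plus strand), was the 1 member called in all 6 comparisons of 2 groups. It measured 42.7, 59.8 and 72.4 CPM in cortex, 81.4, 112 and 167 CPM in D1 dorsal and 64.7, 78.0 and 107 CPM in D1 ventral striatum. D2 libraries held 129, 220 and 300 CPM in dorsal and 96.5, 129 and 162 CPM in ventral striatum, and 13 of 16 D2 dorsal libraries exceeded every D1 dorsal library. D1 was lower than D2 by 0.82 in dorsal (SE 0.11, adjusted p = 5.82e-07) and 0.68 in ventral striatum (SE 0.09, adjusted p = 5.69e-07). Dorsal exceeded ventral striatum by 0.58 in D1 (SE 0.10, adjusted p = 1.75e-05) and 0.72 in D2 (SE 0.11, adjusted p = 3.02e-06), and cortex was lowest (-1.05 and -0.47).

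Cacnb3, known as a partner of N-type pores, differed between receptors in the other direction. Its medians were 76.1 CPM in cortex, 55.4 and 49.1 CPM in D1 and 35.9 and 36.5 CPM in D2 dorsal and ventral striatum. D1 exceeded D2 by 0.69 in dorsal (SE 0.08, adjusted p = 4.6e-08) and 0.60 in ventral striatum (SE 0.12, adjusted p = 0.000108), and cortex exceeded both D1 striatal groups (0.49 and 0.71). In D1 it was higher in dorsal striatum by 0.22 (adjusted p = 0.0257), a call that was lost within EM libraries. Its order by group is thus that of the cortical projection neuron markers, whose part was not tested. Per kilobase, Cacnb2 was 40.1% and Cacnb3 10.6% of beta subunit signal in D2 dorsal striatum, against 15.7% and 35.5% in cortex. Cacnb4 held 33.7% to 46.6% in every group by its median. It was lower in D1 by 0.37 and 0.44 (adjusted p = 0.0153 and 0.00199, limma), but in D2 dorsal striatum EM libraries were lower than OdP libraries by 0.43, and the dorsal call was lost within EM libraries. The ventral call was lost with the genic share in the fit (-0.04). Cacnb1 was lower in cortex by 0.48 against each striatal group (adjusted p = 6.84e-05 and 7.57e-07, limma).

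**Figure D4:**
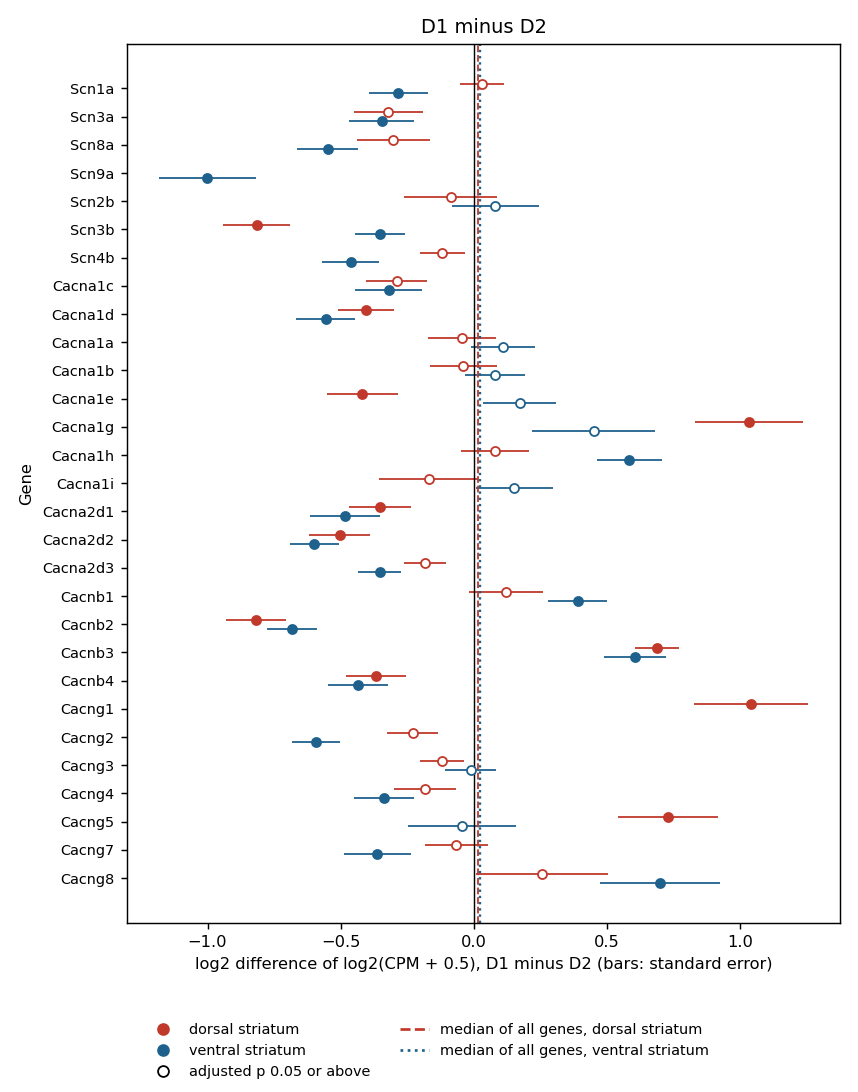
D1 minus D2 differences of log2(CPM + 0.5) with their standard errors for each tested member in dorsal (red) and ventral (blue) striatum; filled points have an adjusted p under 0.05, and dashed and dotted lines mark the median of all genes. Cacnb3 lies right of 0 in both regions, and Cacnb2, Scn3b, Cacna1d and Cacna2d2 left of 0 in both.

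In the Cacng family the contrast was between the AMPA receptor auxiliary genes. Cacng4 (gamma4), on chromosome 11 (107732357 to 107794557, minus strand), measured 4.94, 7.10 and 13.7 CPM in cortex (lowest, median, highest), 38.4, 56.9 and 89.4 CPM in D1 dorsal and 23.8, 32.1 and 56.9 CPM in D1 ventral striatum. D2 libraries held 48.2, 68.6 and 87.1 CPM in dorsal and 33.3, 44.2 and 54.9 CPM in ventral striatum. All striatal libraries exceeded all cortex libraries, and the cortex differences were -2.90 (SE 0.13, adjusted p = 2.75e-22) and -2.12 (SE 0.12, adjusted p = 6.62e-19). The 4 cortex libraries highest in Ppp1r1b held 9.32 to 13.7 CPM of Cacng4 and the others 4.94 to 9.44 CPM. Without them the differences were -3.05 and -2.27. Higher dorsal values were found in D1, by 0.78 (SE 0.13, adjusted p = 7.81e-06), and in D2, by 0.63 (SE 0.10, adjusted p = 8.63e-06). In ventral striatum D1 was called lower by 0.34 (adjusted p = 0.0139), but the sign turned with the genic share in the fit (0.01, adjusted p = 0.969). Per kilobase, Cacng4 was a median of 33.6% of the signal of the 6 auxiliary genes in D1 dorsal striatum and 5.12% in cortex.

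The other auxiliary genes differed less between cortex and striatum. Cacng2 (stargazin) and Cacng7 were higher in cortex than in both D1 striatal groups, by 0.30 and 0.80 for Cacng2 and by 0.56 and 0.75 for Cacng7. The dorsal call of Cacng2 was lost with edgeR on the recovered reads (0.20). Cacng3 had higher dorsal values, by 0.34 in D1 and 0.44 in D2 (adjusted p = 0.00222 and 0.000341, limma), the D2 call being lost within EM libraries (0.29, adjusted p = 0.1). Cacng8, which limma called higher in D1 in ventral striatum (0.70, adjusted p = 0.0109), had medians of 0.683 to 1.48 CPM, and edgeR did not call it.

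Cacng5, 80.0 kb from Cacng4 on the same strand, measured 3.07, 4.49 and 8.04 CPM in cortex, 0.916, 4.38 and 8.15 CPM in D1 dorsal and 2.82, 5.44 and 7.30 CPM in D1 ventral striatum. It measured 0.863, 2.13 and 4.77 CPM in D2 dorsal and 1.08, 5.67 and 14.0 CPM in D2 ventral striatum, where the spread was widest. In D2, dorsal lay below ventral striatum by 1.10 (SE 0.22, adjusted p = 0.0002). This difference moved with the library code: it was -1.57 (adjusted p = 9.19e-05) within EM libraries and -0.38 (adjusted p = 0.414) within OdP libraries, whose ventral medians were 7.38 and 3.63 CPM. In dorsal striatum D1 exceeded D2 by 0.73 (SE 0.19, adjusted p = 0.00385), and by 0.63 within EM libraries (adjusted p = 0.0977). In ventral striatum the receptor difference was -0.05, and -0.50 within EM libraries (adjusted p = 0.0257).

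Cacng1, the gamma1 subunit known from skeletal muscle, lies 15.8 kb from Cacng4. It was low: 0.468, 1.63 and 5.98 CPM in D1 dorsal striatum (lowest, median, highest), 0.0465, 0.711 and 2.22 CPM in D2 dorsal striatum, medians of 0.286 and 0.0916 CPM in D1 and D2 ventral striatum, and 0 reads in 13 of 19 cortex libraries. In D1, 12 of 15 dorsal libraries exceeded all ventral ones, with a difference of 1.49 (SE 0.19, adjusted p = 8.95e-08). Against D2 dorsal striatum the difference was 1.04 (SE 0.21, adjusted p = 0.000352). It entered both tests mainly through D1 dorsal libraries, so the filter favoured this direction. With a pseudocount of 0.1 the regional difference was 2.24, and with edgeR on the recovered reads 2.59. Its neighbours Cacng4 and Cacng5 share the chromosome strand but not this order of groups. Cacng6 did not exceed 0.176 CPM.

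**Figure D5:**
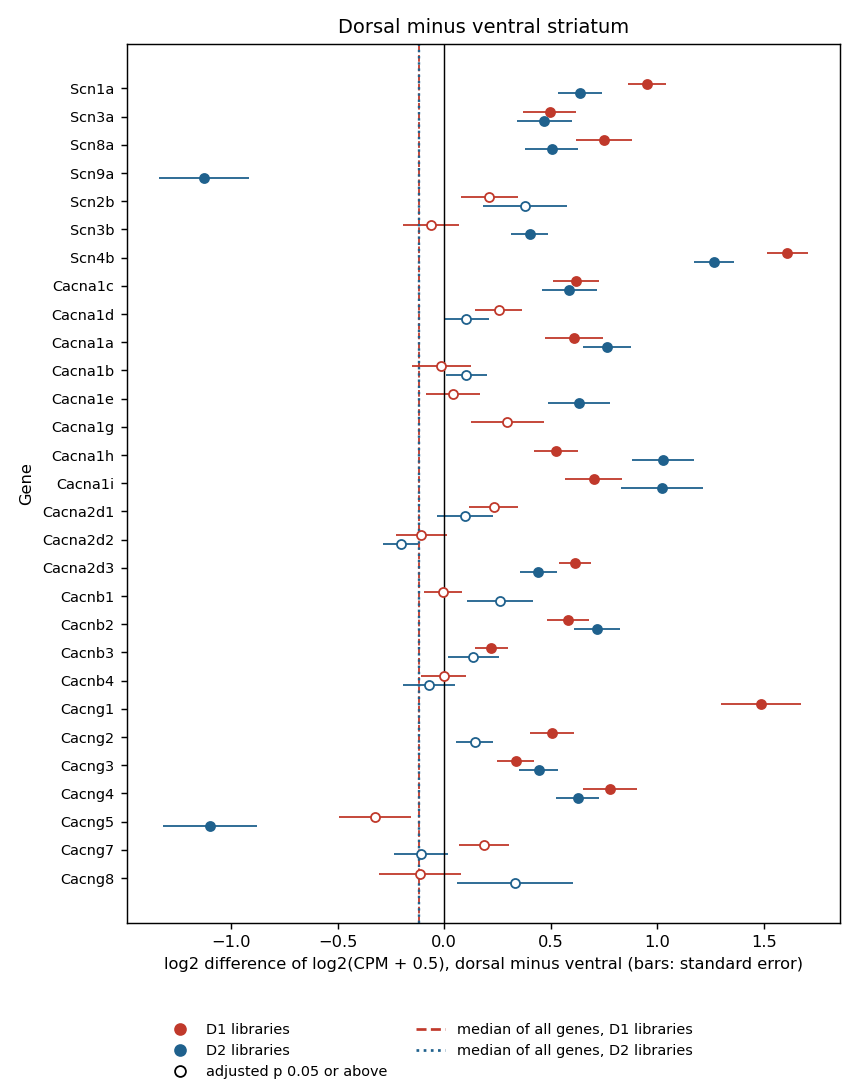
Dorsal minus ventral differences of log2(CPM + 0.5) with their standard errors for each tested member in D1 (red) and D2 (blue) libraries; filled points have an adjusted p under 0.05, and the lines mark the median of all genes, -0.12 in both. Most filled points lie right of 0, and Cacng5 and Scn9a lie left of it in D2.

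Across receptors, 12 of the 27 members tested in both were called higher dorsally for D1 and also for D2, and 0 were called in opposite directions. Of the 10956 genes tested in both, 5.43% were called higher in both, 12.7% lower in both and 0.301% in opposite directions. These 2 comparisons share no libraries. The 12 were Cacna1a, Cacna1c, Cacna1h, Cacna1i, Cacna2d3, Cacnb2, Cacng3, Cacng4, Scn1a, Scn3a, Scn4b and Scn8a. They include the sodium channel alpha subunits Scn1a, Scn3a and Scn8a, 2 of the 3 T-type genes, Scn4b, 2 AMPA receptor auxiliary genes, and 1 gene each of the L-type, P/Q-type, alpha2delta and calcium channel beta classes. In D2, Cacng3 and Scn8a lost the call within EM libraries and Cacna1c within OdP libraries; the other 9 kept both calls under each alternative run. Across regions, 8 of the 28 members tested in both were called between receptors in both, among them Cacnb3 higher in D1, and Cacna1d, Cacna2d1, Cacna2d2, Cacnb2, Cacnb4 and Scn3b lower. The count in opposite directions was 0. Of the 10942 genes tested in both, 8.87% were called higher in D1 in both regions, 10.2% lower in both and 0.183% in opposite directions. Of the 8 members, Cacnb3, Cacna2d2 and Cacnb2 kept both calls under each alternative run. Cacna1d, Cacna2d1 and Cacnb4 lost the dorsal call within EM libraries, Cacna2d1 and Cacnb4 also with the genic share in the fit, and these 3 and Scn3b lost the ventral call with the genic share in the fit.

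Of the 25 genes listed as partners of these channels (anchors, FGF homologous factors, small GTPases, RIM proteins, STAC adaptors and the NALCN complex), 21 passed the filter. Cortex against D1 dorsal striatum called 11 higher and 9 lower (54.8% of all genes were called). D1 against D2 called 4 higher and 4 lower in dorsal (25.9% of all genes) and 4 higher and 5 lower in ventral striatum (47.7% of all genes). Rem2, a small GTPase that inhibits calcium channels through their beta subunit, had a median of 0.679 CPM in cortex. In D1 dorsal and ventral striatum its medians were 13.3 and 13 CPM (differences -3.44 and -3.36, SE 0.16 and 0.15). It met the minimum mainly through striatal libraries, so the filter favoured this direction. Stac2, an adaptor of L-type channels, was the reverse, with a median of 73.2 CPM in cortex and 14.7 and 16.7 CPM in D1 striatum (2.32 and 2.12). It also exceeded D2 in D1 dorsal striatum by 1.35 (SE 0.14, adjusted p = 8.05e-10). Fam155a, a subunit of the NALCN leak channel, was lower in D1 than in D2 by 1.41 in dorsal (SE 0.13, adjusted p = 3.59e-11) and 1.11 in ventral striatum (SE 0.09, adjusted p = 1.65e-11), while Nalcn itself was called in neither. Cabp1, a calmodulin relative that binds calcium channel pores, was higher in D1 by 1.16 and 1.37 (adjusted p = 2.19e-05 and 6.01e-07, limma). Dorsal against ventral striatum called 5 higher and 3 lower in D1 (10.1% and 24.5% of all genes) and 2 higher and 3 lower in D2 (7.93% and 20.6% of all genes).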

How the data were processed

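One table from the authors holds deposited CPM values for 25899 gene symbols, and all 79 columns were matched to samples by name (0 unmatched). The submitters' processing notes name Trim Galore 0.4.2, cutadapt 1.9.1, FastQC, HISAT2 0.12.2 and the GRCm38 build; the counting program and the scaling total are not given in the sources used here. Deposited columns summed to 309566 to 401527 CPM, and 100% of values above 0 were whole multiples of a column's step (tolerance 1e-6), which gave whole reads. The labels' protocols name an amplified cDNA kit and no molecular identifiers, so depth bounds counting error only.

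Comparisons used limma 3.58.1 (R 4.3.3; trended eBayes) on log2(CPM + 0.5), fitted to both groups of a comparison only, on genes at 1 CPM or more in as many libraries as the smaller group, two-sided, with Benjamini-Hochberg adjustment over all genes. A receptor by region contrast used the 4 striatal groups. Scripts were tested on simulated data. Alternatives were a pseudocount of 0.1, no filter, 2 other scalings, EM or OdP libraries alone, the genic share (percent of reads that fell in genes) in the fit, edgeR 4.0.16 on the whole reads, and libraries left out. Shares of reads in genes were compared with 100000 permutations. Levels were set side by side between genes only per kilobase of exon (GENCODE M21, protein-coding basic transcripts).

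Members given in full were those called with a log2 difference of at least 1 in any comparison with the higher group averaging at least 1 CPM, or, in a role without one, the member with the largest called difference. The 4 cortex libraries left out in an alternative were picked after seeing the data by a striatal gene that, like 2 members, is not reported here; counts of members include both, and shares per kilobase and figures leave them out. Members, gene lists and tests were chosen with earlier results of these data known. Replicate numbers follow accession order and pair nothing.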

Additional observations from a re-analysis of the deposited data

How the results depend on the processing

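Counts of members called kept within 1.5 times of the value given under every alternative tried, with 2 exceptions. D1 against D2 ventral striatum gave 21 and fell to 6 with the genic share of reads in the fit; the other alternatives gave 17 to 22. The receptor by region interaction gave 0, but 1 within EM libraries (Cacng5, 1.13, adjusted p = 0.0402, limma) and 1 without the dorsal libraries lowest in the striatal gene Ppp1r1b, D1 replicate 13 and D2 replicate 6 (Cacna1h, -0.59, adjusted p = 0.031, limma), an alternative chosen after seeing the data. Of all 115 calls in comparisons of 2 groups, 84 held under every alternative, 18 were lost with the genic share in the fit, 13 within EM libraries and 6 when scaled to the reads in genes. The sign of 2 turned, both in D1 against D2 ventral striatum with the genic share: Cacng4 (0.0122, from -0.34) and Scn3a (0.0770, from -0.35). The cause was not tested. Median-ratio scaling moved the median of all genes for dorsal against ventral striatum from -0.12 to -0.01 in D1 and 0.00 in D2, and gave 18 calls in each; scaling to the reads in genes moved that of D1 against D2 ventral striatum from 0.02 to 0.13. The 12 members called higher in dorsal striatum for both receptors stayed higher under each scaling. Without the filter, D1 dorsal against ventral striatum gave 16 higher and 2 lower, among genes too low for the main test. No paired analysis was run, because library titles are serial numbers, not replicate numbers. Groups compared share a title number under one code in 1 case at most (JAG13 and JAG13bis). Consecutive titles often run through the regions with the same number of males, but no label states that they share mice.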

Other observations

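Scn2a1, the row for Scn2a, the main sodium channel pore of projection neurons, lay outside the symbol rule. Its medians were 112 CPM in cortex, 126 and 102 CPM in D1 dorsal and ventral striatum and 117 and 86.5 CPM in D2. Dorsal exceeded ventral values by 0.29 in D1 (SE 0.08, adjusted p = 0.00364, limma) and 0.47 in D2 (SE 0.08, adjusted p = 3.22e-05), and D1 exceeded D2 in ventral striatum by 0.28 (adjusted p = 0.00831). Per kilobase of exon it held a median of 37.6% to 51.0% of sodium channel alpha signal in the 5 groups, and Scn8a 26.9% to 35.7%.

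Cachd1, whose product resembles alpha2delta subunits, was lower in dorsal than in ventral striatum. It had medians of 3.33 and 3.28 CPM in D1 and D2 ventral striatum and 0.869 and 1.05 CPM in dorsal striatum. Dorsal minus ventral was -1.38 in D1 (SE 0.15, adjusted p = 4.89e-09, limma) and -0.99 in D2 (SE 0.16, adjusted p = 5.75e-06). In D1 it met the minimum of 1 CPM mainly through ventral libraries, and in D2 the dorsal median lay near that minimum. The filter thus favoured this direction, and nothing is read from it about the members.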
